A study of Mus musculus with 4 samples.

Results

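Glycolysis was followed through 10 genes: the hexokinases Hk1 and Hk2, the phosphofructokinase subunit Pfkl and its regulator Pfkfb3, the enzymes Aldoa, Tpi1, Gapdh and Pgk1, and the lactate dehydrogenase subunits Ldha and Ldhb. They were picked by symbol and took 11 of the 32285 gene rows, because Aldoa is listed under 2 gene IDs. RNA was counted on 10x Visium slides, which carry barcoded spots under a thin tissue section and count each captured transcript once by its molecular identifier (UMI). A spot covers a small region that can hold several cells of different types, so levels are those of spots, not of cells.

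Brain sections of 10 µm came from 2 control and 2 knockout libraries of mice aged 65 days (P65). Both genotypes carried loxP-flanked Pdcd10 (Pdcd10fl/fl) and were dosed with 50 µg of 4-hydroxytamoxifen by stomach injection at day 1 (P1). Controls were littermates without Cre, and knockouts also carried Slco1c1-iCreERT2, a tamoxifen-dependent Cre driven in brain endothelial cells, so that Pdcd10 (CCM3) was deleted in vessel lining cells. The sample titles and the design text call every animal normoxic, whereas the treatment label reads hypoxia for the knockouts and normoxia for the controls, and a protocol line given for all 4 libraries names 12% oxygen for 2 days. If the treatment label holds, low oxygen and genotype cannot be told apart in any value below. Nothing in the labels says that the libraries come from separate animals, so p-values measure the spread between these libraries, and an exact permutation test of 2 against 2 could not go below p = 0.33.

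Glycolysis splits glucose into pyruvate in the cytosol and yields a little ATP without oxygen. Hexokinase traps glucose in the cell, phosphofructokinase sets the pace, and lactate dehydrogenase turns pyruvate into lactate or back. In brain, neurons lean on oxidative metabolism, astrocytes are held to be more glycolytic and to pass lactate on, and endothelial cells make much of their ATP by glycolysis. Several of these genes, among them Hk2, Pfkfb3, Aldoa, Pgk1 and Ldha, are textbook targets of hypoxia-inducible factor, and Hk2 and Pfkfb3 are also induced in activated immune cells.

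Control libraries held 50148764 and 64317838 UMIs and knockout libraries 53514669 and 74467027, over 2931 to 4599 spots with at least 1000 UMIs. The 10 genes took 0.741% to 0.937% of all UMIs, lowest in control 2, where mitochondrial transcripts were highest at 11.4% against 7.43% to 8.52% in the others. Pdcd10 itself stood at 90.9 and 82.3 CPM for controls (counts per 1000000, scaled by TMM factors) against 80.3 and 83.0 CPM for knockouts (adjusted p = 0.410), which checks little, because endothelial cells are a small part of a spot and a 3' tag need not lie in the deleted part. All 4992 barcodes are those of the slide and are shared by every library. Oligodendrocyte markers fell in 12 of 12 genes, from a summed 9268 and 12860 CPM to 5551 and 4102 CPM. Endothelial markers rose in 12 of 14, from 290.1 and 299 to 665 and 646 CPM. Microglia and macrophage markers rose in 8 of 12, from 469.6 and 537 to 956 and 941 CPM. Fewer cells of a type and less RNA per cell cannot be told apart in such sums. The sections also differed in the regions they held: 38.4% and 38.5% of control spots against 21.5% and 20.8% of knockout spots scored highest on a cortex gene list, and 14.4% and 13.4% against 25.6% and 32.7% on a hippocampus list.

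Over whole sections, Hk2 and Pfkfb3 were higher in the knockouts and the other 8 genes did not pass the test. The test was edgeR's quasi-likelihood fit on UMIs summed over a library's spots, with adjusted p-values (Benjamini-Hochberg over all 17546 genes tested) called under 0.05. Adjusted p-values below come from edgeR fits of this kind unless DESeq2 is named, each adjusted over the genes tested in its own comparison. Among all genes tested, 38.4% were called and 20.1% were called higher. The 2 calls in 10, both higher, were thus below the first share and close to the second. The median log2 change of the 10 genes was 0.05 and that of all genes tested was near 0.

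**Figure D1:**
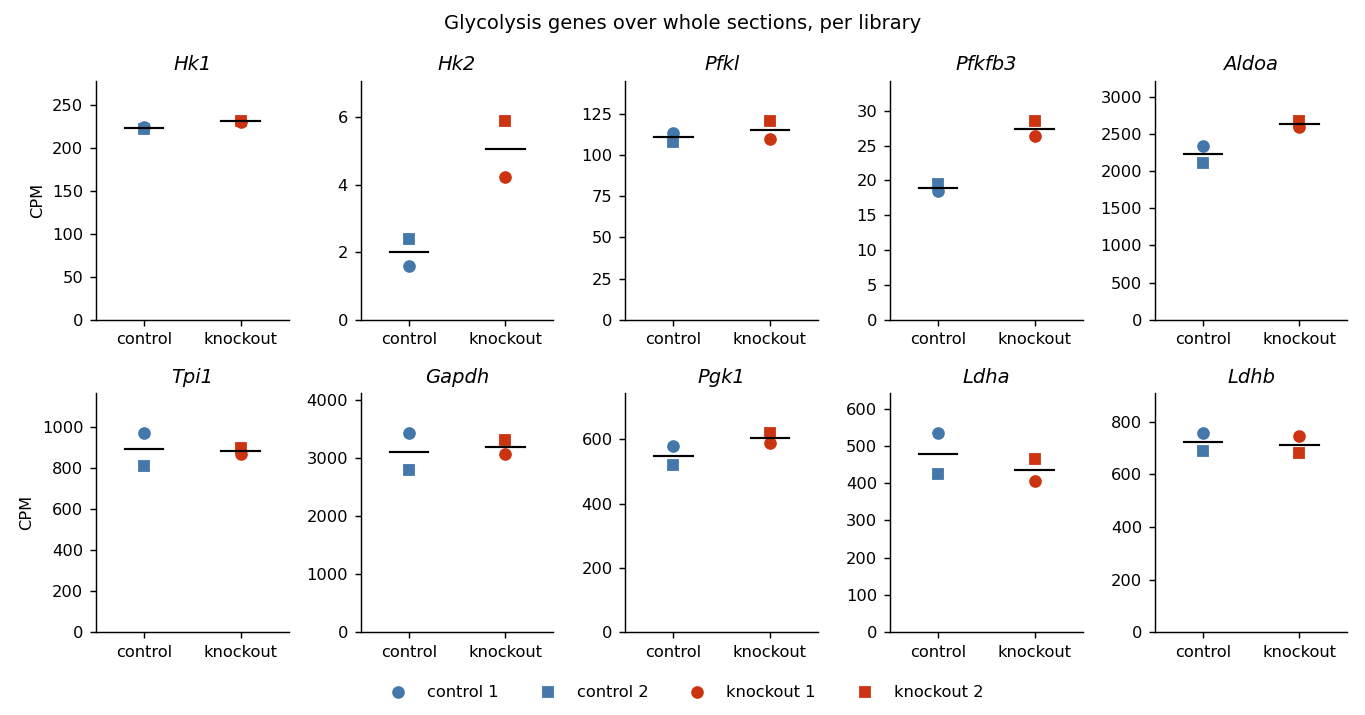
Level of each of the 10 genes over whole sections, in TMM-scaled CPM (linear axis from 0), with 1 point per library (controls blue, knockouts red; circle for replicate 1, square for replicate 2) and a line at each group mean. Hk2 and Pfkfb3 show both knockout points clear of both control points, whereas for Pfkl, Tpi1, Gapdh, Ldha and Ldhb the groups overlap.

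Hexokinases catalyse the entry step, and the form found in most brain cells is Hk1 (chr10:62268855-62379920, GRCm38.p6). Controls had 224 and 222 CPM of it and knockouts 230.1 and 231 CPM, a log2 difference of 0.05 ± 0.07 (SE; adjusted p = 0.613). Both knockout libraries lay above both controls, as they did for 5 of the 10 genes (Hk1, Hk2, Pfkfb3, Aldoa and Pgk1), but the gap was small. Groups clear of each other in either direction were seen in 72.5% of all genes tested.

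Hk2 (chr6:82725025-82774454), the form that muscle and fat use and that is inducible elsewhere, was scarce: 78, 148, 229 and 454 UMIs in control 1, control 2, knockout 1 and knockout 2. Scaled to depth, controls had 1.60 and 2.41 CPM and knockouts 4.25 and 5.90 CPM. The means were 2.003 ± 0.574 and 5.07 ± 1.17 CPM (SD, n = 2 each), and both knockouts stood above both controls. The rise was 2.52-fold (log2 1.33 ± 0.24 SE, adjusted p = 0.00480). It was as large when each library gave equal numbers of spots per region list (log2 1.66, adjusted p = 0.000941).

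Hk2 stayed a small part of hexokinase transcripts. Of all Hk1 and Hk2 UMIs, Hk2 made up 0.708% (95% Wilson interval 0.567 to 0.882) in control 1 and 1.07% in control 2, against 1.81% in knockout 1 and 2.49% (2.27 to 2.72) in knockout 2. The intervals cover counting error only. These shares compare libraries, since 3' counts of different genes are not matched for capture.

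Phosphofructokinase commits the sugar to glycolysis. Its liver-type subunit Pfkl (chr10:77986947-78009807) measured 113 and 108 CPM for controls against 109.7 and 121 CPM for knockouts, with overlapping groups (log2 0.06, adjusted p = 0.581). Pfkfb3 (chr2:11471430-11554071) makes the sugar bisphosphate that activates phosphofructokinase. Controls had 18.4 and 19.5 CPM and knockouts 26.3 and 28.5 CPM. The rise was 1.45-fold (log2 0.53 ± 0.08 SE, adjusted p = 0.00232), from 19.0 ± 0.720 to 27.4 ± 1.57 CPM (SD, n = 2 each), with the groups clear of each other. With equal spots per region list it was log2 0.57 (adjusted p = 0.0018).

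Because Hk2 and Pfkfb3 both rose, their promoters are shown, taken from RefSeq's GRCm38.p6 table as the 250 bases before an annotated start, read 5' to 3' on the gene's strand. Capitals mark ACGTG or GCGTG, the core that hypoxia-inducible factor binds, on either strand (CACGT or CACGC when reversed).
Hk2, chr6:82774455-82774704, minus strand: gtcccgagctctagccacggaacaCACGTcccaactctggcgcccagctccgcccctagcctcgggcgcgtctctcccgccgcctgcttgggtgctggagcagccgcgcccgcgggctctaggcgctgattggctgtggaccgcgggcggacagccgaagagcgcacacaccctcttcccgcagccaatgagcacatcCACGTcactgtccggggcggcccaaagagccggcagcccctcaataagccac
Pfkfb3, chr2:11502091-11502340, minus strand: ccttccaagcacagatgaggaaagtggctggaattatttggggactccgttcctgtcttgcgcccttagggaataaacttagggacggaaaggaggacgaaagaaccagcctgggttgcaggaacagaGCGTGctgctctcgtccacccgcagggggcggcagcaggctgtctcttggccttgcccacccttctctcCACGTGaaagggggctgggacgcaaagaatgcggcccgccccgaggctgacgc
Pfkfb3, chr2:11553930-11554179, minus strand: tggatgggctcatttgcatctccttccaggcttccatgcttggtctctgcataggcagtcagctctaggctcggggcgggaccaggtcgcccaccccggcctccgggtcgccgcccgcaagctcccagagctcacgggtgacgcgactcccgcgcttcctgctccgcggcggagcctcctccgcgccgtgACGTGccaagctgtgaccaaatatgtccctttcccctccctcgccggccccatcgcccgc
The table gave 15 windows for the 10 genes. ACGTG was in 7 of them, belonging to 5 genes, against 16.6% of the 32851 windows of all genes, and GCGTG in 6, belonging to 6 genes, against 28.2%. A window can hold overlapping matches, as CACGTG counts once on each strand. Windows can overlap too: 2 of the 3 Aldoa windows hold the same ACGTG site, which is thus counted in both. The genes with ACGTG were Hk2, Pfkfb3, Aldoa, Pgk1 and Ldha, and of these only Hk2 and Pfkfb3 passed the whole-section test. Such matches describe the sequence and do not show that a factor was bound.

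Among the genes followed here, the enzymes in the middle of the pathway (Aldoa, Tpi1, Gapdh and Pgk1) did not pass the test over whole sections. Some enzymes outside this set did pass and are given by list below. Aldoa (chr7:126795234-126800994), which cleaves the sugar bisphosphate into triose phosphates, measured 2339 and 2115 CPM for controls against 2591 and 2677 CPM for knockouts. Both knockouts were higher, but the difference did not pass (log2 0.24 ± 0.11 SE, adjusted p = 0.111). Without control 1 it did (log2 0.32, adjusted p = 0.00885), and DESeq2 also called it (adjusted p = 0.0251). The second Aldoa row (ENSMUSG00000114515) held 1 to 3 UMIs per library and was not tested.

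Tpi1 (chr6:124810586-124814158), which interconverts the triose phosphates, measured 971 and 812 CPM for controls against 868 and 896 CPM for knockouts (log2 -0.02, adjusted p = 0.924). Gapdh (chr6:125161852-125166467), the dehydrogenase that follows, was at 3425 and 2791 CPM against 3063 and 3306 CPM (log2 0.04, adjusted p = 0.855). For both, the 2 controls enclosed the 2 knockouts, so the control spread was larger than any group difference. Pgk1 (chrX:106187100-106203699), the first ATP-forming enzyme of the path, was at 578 and 519.7 CPM against 588 and 619 CPM, with both knockouts higher but no call (log2 0.14, adjusted p = 0.265).

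At the end of the path, the A subunit of lactate dehydrogenase, which favours lactate formation, and the B subunit, which favours the reverse reaction, did not pass the test over whole sections. Ldha (chr7:46842274-46855627) measured 535 and 424 CPM for controls against 406 and 465.5 CPM for knockouts, with knockout 2 between the controls (log2 -0.14 ± 0.13 SE, adjusted p = 0.422). Without control 2, Ldha was called lower (log2 -0.30, adjusted p = 0.0171). Ldhb (chr6:142490249-142507957) was at 757 and 689 CPM against 746 and 681 CPM (log2 -0.02, adjusted p = 0.888). The share of Ldha among Ldha and Ldhb UMIs was 41.4% and 38.1% for controls against 35.2% and 40.6% for knockouts, again overlapping.

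**Figure D2:**
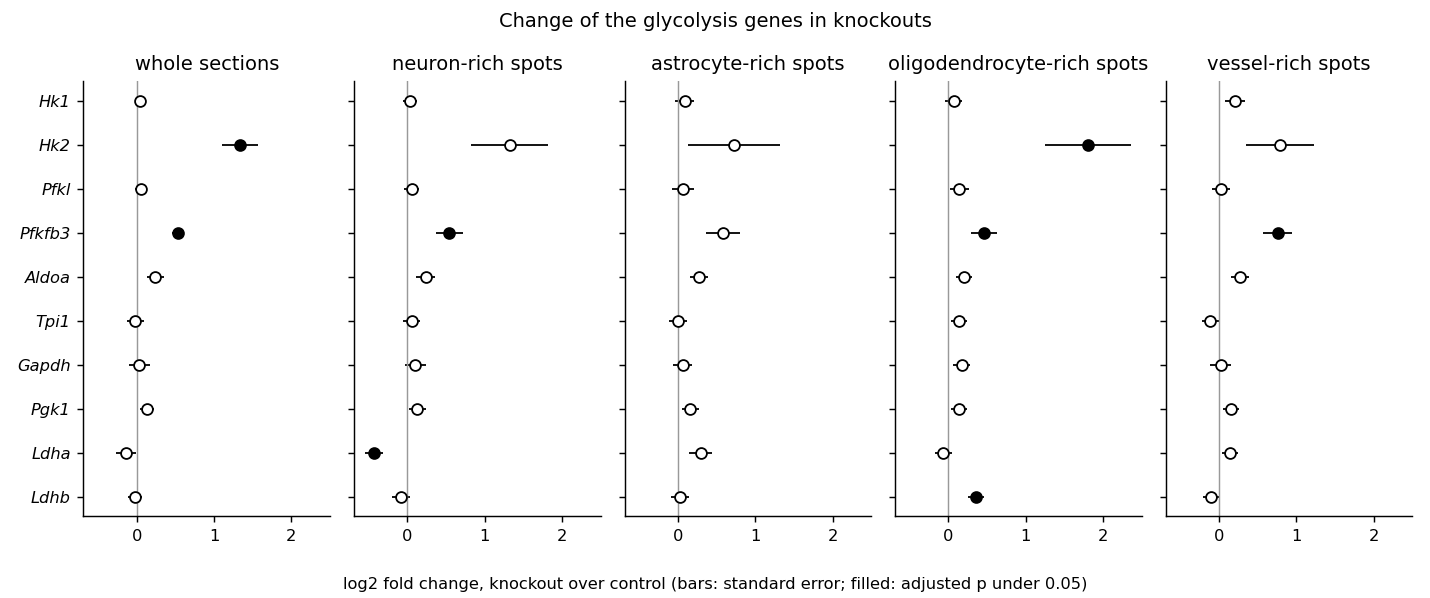
Knockout over control difference of each gene on a log2 scale (points, with bars of 1 standard error; filled where adjusted p is under 0.05) over whole sections and in spots rich in neuron, astrocyte, oligodendrocyte or vessel transcripts. Pfkfb3 lies right of 0 in all 5 panels and is filled in 4, Hk2 has the widest bars, and Ldha lies left of 0 in neuron-rich spots and right of 0 in astrocyte-rich and vessel-rich spots.

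Hk2 and Pfkfb3 were then read within spots assigned to each of 6 region gene lists. Hk2 was called in the cortex and hippocampus lists and Pfkfb3 in the cortex and striatum lists. In spots that scored highest on the cortex list, controls had 1.06 and 1.43 CPM of Hk2 (23 and 35 UMIs) and knockouts 4.83 and 8.33 CPM (54 and 115 UMIs). That was the widest gap of the 6 lists (log2 2.44 ± 0.31 SE, adjusted p = 0.000195, where 37.9% of genes were called). In hippocampus-list spots Hk2 was at 3.81 and 3.78 against 5.63 and 6.91 CPM (log2 0.74, adjusted p = 0.0286, 34.8% called). In thalamus-list spots, where 22.5% of genes were called, the libraries interleaved at 0.679 and 2.67 against 1.01 and 2.61 CPM (log2 0.06, adjusted p = 0.954). Striatum, hypothalamus and amygdala, and midbrain and hindbrain lists gave log2 0.80, 0.77 and 0.90, none past the threshold, where 13.8%, 19.6% and 17.0% of genes were called. Control levels themselves differed between regions, with hippocampus-list spots highest in both control libraries.

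Pfkfb3 was called in the cortex list, at 13.4 and 13.2 CPM against 20.1 and 28.1 CPM (log2 0.90, adjusted p = 0.00110), and in the striatum list, at 19.3 and 20.9 CPM against 33.6 CPM in each knockout (log2 0.71, adjusted p = 0.00939). In hippocampus-list spots the values were 16.1 and 21.6 against 22.2 and 27.1 CPM (log2 0.38, adjusted p = 0.0679). In thalamus-list and in midbrain and hindbrain spots Pfkfb3 was at 26.8 to 31.5 CPM in controls, and the log2 differences were 0.22 and 0.12, with adjusted p = 0.245 and 0.564. In hypothalamus and amygdala spots it was at 18.0 and 23.0 against 23.2 and 23.5 CPM (log2 0.17, adjusted p = 0.492). Differences in effect between regions were not tested. Ldha varied between regions in every library: it measured 692 and 560.04 CPM in control cortex-list spots and 249.96 and 249.9 CPM in control thalamus-list spots, and it was called in no region.

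**Figure D3:**
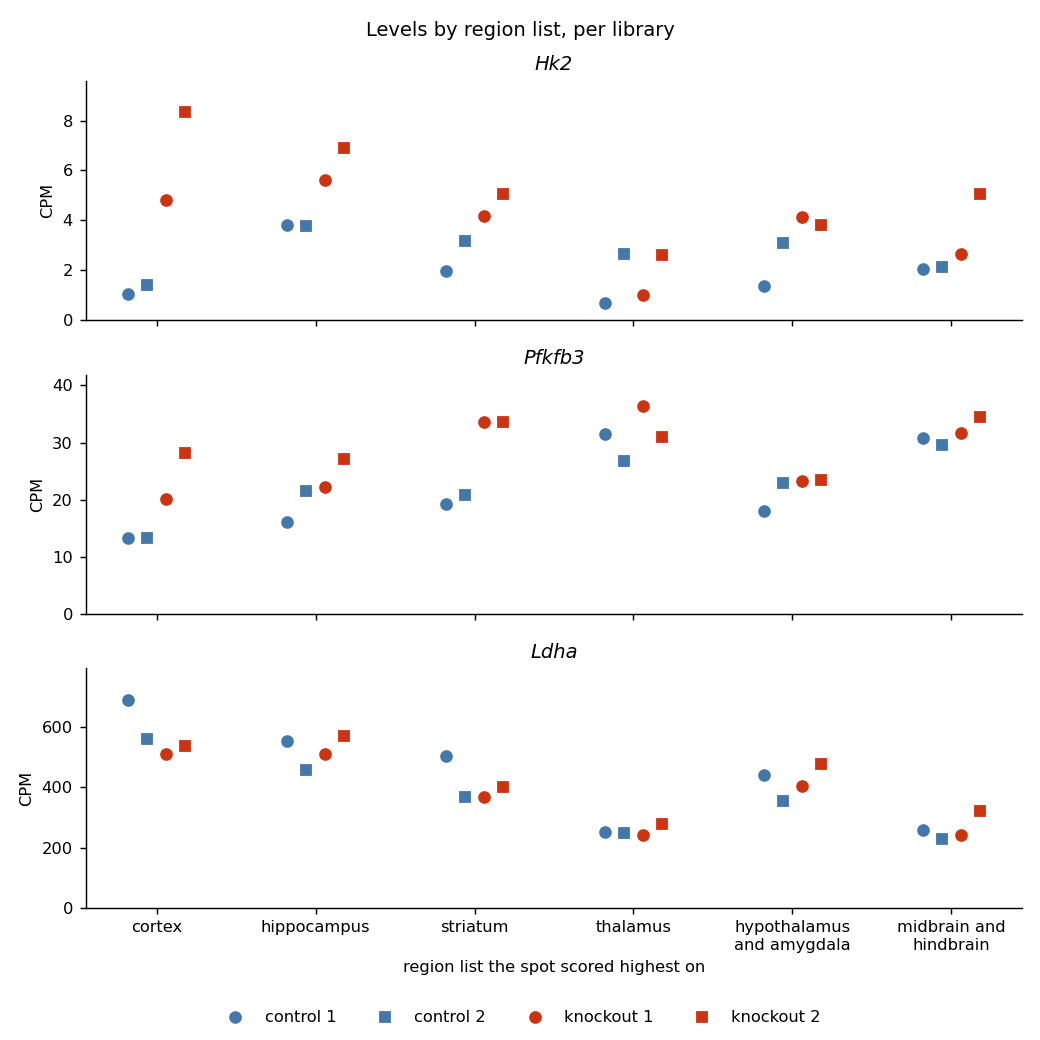
Level of Hk2, Pfkfb3 and Ldha (CPM, linear axes from 0) in spots of at least 5000 UMIs, grouped by the region gene list each spot scored highest on, with 1 point per library (controls blue, knockouts red). The cortex list shows the widest knockout to control gap for Hk2, and Ldha is lowest in thalamus and midbrain and hindbrain spots of all 4 libraries.

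Spots of at least 5000 UMIs were then sorted by the share of UMIs from marker genes. The top 10% of a library by neuron, astrocyte, oligodendrocyte or pan-endothelial markers formed a class, and spots in more than 1 class were left out. This gave 213 to 310 neuron-rich, 121 to 195 astrocyte-rich, 167 to 216 oligodendrocyte-rich and 112 to 219 vessel-rich spots per library. Mural markers, which were not used in the choice, summed to 343 to 663 CPM in vessel-rich spots against 110.03 to 153 CPM in neuron-rich spots. Astrocyte-rich spots held 272 to 416 CPM of them, and in control 1 these exceeded the vessel-rich spots (416 against 343 CPM). The classes did not match between genotypes: oligodendrocyte markers took 4.67% and 5.31% of UMIs in control oligodendrocyte-rich spots but 2.13% and 1.95% in knockouts, and endothelial markers 0.0803% and 0.0744% in control vessel-rich spots but 0.192% and 0.239% in knockouts. Of neuron-rich spots, 82.2% and 76.0% in controls and 31.3% and 26.1% in knockouts scored highest on the cortex list. Vessel-rich spots of control 1 also carried 1888 summed CPM of pituitary markers, against 269.5 in control 2 and 8.05 and 6.24 in the knockouts, and astrocyte-rich spots 519 and 344 CPM in controls against 3.98 and 4.89 CPM in knockouts. The part of these in the class results was not tested. For this reason class results are given beside a version with 98 spots per class and library and equal numbers per region list, which was added after the data were seen.

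Hk1, Aldoa, Tpi1, Gapdh and Pgk1 had their highest mean level in neuron-rich spots in both genotypes, whereas Hk2 and Pfkfb3 had their lowest mean there. Against neuron-rich spots, 6 of the 10 genes were lower and 2 higher in astrocyte-rich spots, 5 lower and 1 higher in oligodendrocyte-rich spots, and 6 lower and 2 higher in vessel-rich spots, where 37.0%, 42.2% and 26.6% of all genes differed. Of all genes, 20.4% were higher and 16.6% lower in astrocyte-rich spots, 23.8% and 18.4% in oligodendrocyte-rich spots, and 15.7% and 10.9% in vessel-rich spots. With equal numbers per region, the calls fell to 4, 2 and 2, where 24.6%, 23.6% and 18.6% of genes differed.

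Hk1 was at 234 and 227 CPM in control neuron-rich spots and at 237 and 234 CPM in those of the knockouts. In controls the other classes lay at 162 to 182 CPM and overlapped each other. In knockouts astrocyte-rich and oligodendrocyte-rich spots lay at 172 to 194 CPM. Vessel-rich spots were at 234 CPM in knockout 1, near its neuron-rich level, and at 181 CPM in knockout 2. The difference from neuron-rich spots was log2 -0.36 for astrocyte-rich (adjusted p = 0.00133), -0.43 for oligodendrocyte-rich (0.000204) and -0.27 for vessel-rich spots (0.0112). The vessel-rich difference was not called without control 1, control 2 or knockout 2 (adjusted p = 0.0797, 0.0578 and 0.0822). None of the 3 passed with equal numbers per region (log2 -0.18, -0.06 and -0.17).

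Aldoa ran from 2189.9 to 2760 CPM in neuron-rich spots and from 1741 to 2445 CPM in the other classes. Its differences were log2 -0.34, -0.38 and -0.23 for astrocyte-rich, oligodendrocyte-rich and vessel-rich spots (adjusted p = 0.000182, 4.37e-05 and 0.00564), and the astrocyte-rich one remained with equal numbers per region (log2 -0.21, adjusted p = 0.0104). Tpi1 differed by log2 -0.35, -0.22 and -0.33 in the same order, and all 3 calls held with equal numbers per region (log2 -0.28, -0.19 and -0.29, adjusted p = 0.00109, 0.0226 and 0.00127). Gapdh and Pgk1 were lower in astrocyte-rich spots (log2 -0.25 for each) and vessel-rich spots (log2 -0.22 and -0.27). Neither passed in oligodendrocyte-rich spots. Balanced over regions, the astrocyte-rich differences were log2 -0.16 and -0.22 (adjusted p = 0.0415 and 0.0231) and the vessel-rich ones -0.18 and -0.17, where Pgk1 was no longer called (adjusted p = 0.0295 for Gapdh and 0.0830 for Pgk1). Without knockout 1 the vessel-rich difference of Gapdh was not called (adjusted p = 0.0540), nor that of Pgk1 without knockout 2 (0.0577), whereas Pgk1 was called in oligodendrocyte-rich spots without control 2 (log2 -0.21, adjusted p = 0.0412). Pfkl differed in oligodendrocyte-rich spots alone, by log2 -0.26 (adjusted p = 0.0140). This was not called without control 1 (adjusted p = 0.0579) and was 0.10 with equal numbers per region.

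Hk2 counts in the classes were small, 1 to 21 UMIs per library. In controls the level was 0.435 and 1.28 CPM in neuron-rich, 0.708 and 4.46 in astrocyte-rich, 0.956 and 1.43 in oligodendrocyte-rich, and 2.32 and 3.41 in vessel-rich spots. In knockouts it was 2.24 and 2.37, 3.24 and 6.73, 3.46 and 5.398, and 5.39 and 5.02 CPM in the same order. Vessel-rich spots had the highest mean and neuron-rich spots the lowest in both genotypes, whereas astrocyte-rich and oligodendrocyte-rich spots did not differ beyond the spread of the libraries. The excess over neuron-rich spots was log2 1.27 in astrocyte-rich (adjusted p = 0.00858) and 1.32 in vessel-rich spots (adjusted p = 0.00748). The first was not called without control 2 or knockout 2 (adjusted p = 0.0647 and 0.0916). With equal numbers per region the sizes were 1.24 and 1.35, with adjusted p = 0.155 and 0.122.

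Pfkfb3 was highest in oligodendrocyte-rich spots, at 33.9 and 26.0 CPM in controls and 39.8 CPM in each knockout. It was 16.1 and 14.7 against 19.2 and 25.1 CPM in neuron-rich spots, 17.7 and 21.1 against 30.0 and 29.2 CPM in astrocyte-rich spots, and 18.6 and 18.8 against 34.3 and 29.3 CPM in vessel-rich spots. The excess of oligodendrocyte-rich over neuron-rich spots, log2 0.89 (adjusted p = 1.96e-05), passed also with equal numbers per region (log2 0.48, adjusted p = 0.0460). Those of astrocyte-rich and vessel-rich spots (log2 0.39 and 0.42, adjusted p = 0.0268 and 0.0223) did not (0.29 and 0.40). Neither of these was called without control 2 (adjusted p = 0.133 and 0.0725) or without knockout 1 (0.160 and 0.252).

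In controls Ldha was highest in neuron-rich spots, at 560.4 and 449.5 CPM, then in vessel-rich spots at 393 and 348 CPM. Astrocyte-rich spots, at 336 and 271 CPM, and oligodendrocyte-rich spots, at 300.2 and 281 CPM, overlapped each other. In knockouts neuron-rich spots (373 and 374 CPM) no longer led. Vessel-rich spots stood at 403 and 410.3 CPM, astrocyte-rich spots at 310 and 428 CPM and oligodendrocyte-rich spots at 253 and 298 CPM. Vessel-rich spots were thus highest in knockout 1 and astrocyte-rich spots in knockout 2. Over both genotypes the Ldha difference from neuron-rich spots was log2 -0.38 in astrocyte-rich (adjusted p = 0.0171) and -0.63 in oligodendrocyte-rich spots (adjusted p = 0.000403). With equal numbers per region these were -0.01 and 0.01, and the astrocyte-rich call was also lost without either control (adjusted p = 0.141 without control 1 and 0.138 without control 2). Ldhb was lower in vessel-rich spots alone (log2 -0.27, adjusted p = 0.0266), a call lost without control 2 or knockout 2 (0.0655 and 0.0949) and with equal numbers per region (log2 -0.15, adjusted p = 0.154).

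**Figure D4:**
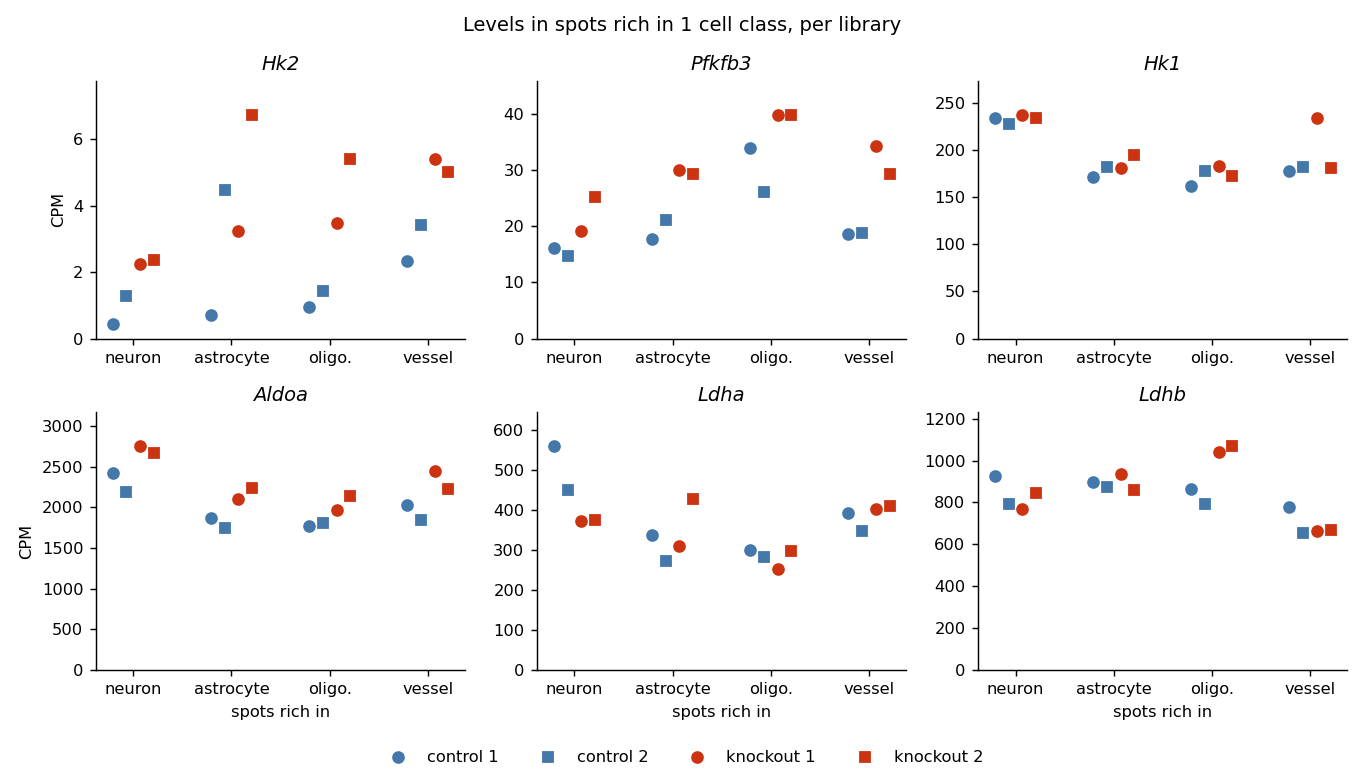
Level of Hk2, Pfkfb3, Hk1, Aldoa, Ldha and Ldhb (CPM, linear axes from 0) in spots rich in neuron, astrocyte, oligodendrocyte (oligo.) or vessel transcripts, with 1 point per library (controls blue, knockouts red; circle for replicate 1, square for replicate 2). Hk1 and Aldoa are highest in neuron-rich spots, Pfkfb3 in oligodendrocyte-rich spots, and the 2 knockout points for Ldha fall below the 2 control points in neuron-rich spots only.

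Within the classes, knockouts were compared with controls in separate fits. In vessel-rich spots Pfkfb3 alone was called, 1.69-fold higher (log2 0.76 ± 0.19 SE, adjusted p = 0.0153), where 16.2% of all genes were called and 8.82% were higher. It held with equal numbers per region (log2 0.80, adjusted p = 0.0391, where 12.1% of genes were called) but not without control 2 or without knockout 1 (log2 0.76 and 0.65, adjusted p = 0.0728 and 0.0543). Hk2 in vessel-rich spots was at log2 0.79 with adjusted p = 0.255, and Aldoa was at log2 0.27 (adjusted p = 0.131), but was called without control 1 (log2 0.34, adjusted p = 0.0160) and without a filter on low counts (log2 0.28, adjusted p = 0.0361). The summed endothelial markers in these spots were 788 and 746 CPM in controls and 1858 and 2364 CPM in knockouts, and their part in the Pfkfb3 difference was not tested.

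In oligodendrocyte-rich spots 3 genes were called, all higher, where 24.8% of genes were called and 11.6% were higher. Hk2 rose from 0.956 and 1.43 CPM to 3.46 and 5.398 CPM (2, 5, 10 and 16 UMIs; log2 1.80 ± 0.55 SE, adjusted p = 0.0110). Pfkfb3 rose by log2 0.46 (adjusted p = 0.0387) and Ldhb by log2 0.36 ± 0.10 SE (adjusted p = 0.00541), the latter from 864 and 792 to 1039 and 1070.5 CPM. These calls were fragile. The Hk2 call was lost without control 1, control 2 or knockout 2 (adjusted p = 0.144, 0.136 and 0.278), the Pfkfb3 call without control 2, knockout 1 or knockout 2 (0.519, 0.135 and 0.137), and the Ldhb call without knockout 2 (0.0830). With equal numbers per region Pfkfb3 alone was called, at log2 0.84 (adjusted p = 0.0182, where 16% of genes were called), and Ldhb was at log2 0.22 (adjusted p = 0.234).

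In neuron-rich spots Pfkfb3 was log2 0.55 ± 0.18 SE higher (adjusted p = 0.0425) and Ldha was lower, where 24.8% of genes were called, 12.2% higher and 12.6% lower. Ldha fell from 560.4 and 449.5 CPM to 373 and 374 CPM (log2 -0.43 ± 0.12 SE, adjusted p = 0.0187). The Pfkfb3 call was lost without control 2 or knockout 2 (adjusted p = 0.133 and 0.384), and the Ldha call without either knockout (0.0930 without knockout 1 and 0.0915 without knockout 2). With equal numbers per region neither passed, where 13.0% of genes did: Pfkfb3 was at log2 0.04 and Ldha at log2 -0.26 (adjusted p = 0.939 and 0.258). Hk2 was at log2 1.32 with adjusted p = 0.0746. Without control 1, Gapdh, Aldoa and Pgk1 were also called higher (log2 0.25, 0.31 and 0.24). In astrocyte-rich spots edgeR called 0 of 10 genes, against 10.6% of all genes. An unadjusted p was under 0.05 for 2 of them, Pfkfb3 and Aldoa (log2 0.59 and 0.27, adjusted p = 0.102 and 0.159), and DESeq2 also called 0. Without knockout 1, Ldha was called higher there (log2 0.51, adjusted p = 0.0286). In the region-balanced version 0 of 9 were called, against 9.29% of all genes, and 3 had an unadjusted p under 0.05.

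The knockout effect on both lactate dehydrogenase subunits differed between classes. Relative to neuron-rich spots, the knockout effect on Ldha was higher by log2 0.71 ± 0.13 SE in astrocyte-rich spots (adjusted p = 0.000478, where 8.0% of genes differed) and by 0.56 ± 0.12 SE in vessel-rich spots (adjusted p = 0.00381, 8.39%). For Ldhb the effect was higher by log2 0.43 ± 0.10 SE in oligodendrocyte-rich spots (adjusted p = 0.00371, 9.16%). With equal numbers per region, Ldha was at log2 0.42 (adjusted p = 0.0534) and 0.18 (adjusted p = 0.602), and Ldhb at log2 0.37 (adjusted p = 0.0473), where 1.23%, 1.1% and 2.17% of genes differed. The vessel-rich difference of Ldha was not called without control 1 (adjusted p = 0.0763), nor that of Ldhb without knockout 1 (0.0712), and without knockout 1 Ldha also differed in oligodendrocyte-rich spots (log2 0.45, adjusted p = 0.0463). No interaction of Hk2 or Pfkfb3 passed in any class.

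The more upstream of the 2 Ldha windows is shown because it held 5 matches to ACGTG, the most of the 15 windows. It lies inside the gene span given above, before an annotated start there. Ldha was called lower in neuron-rich spots and was not called over whole sections.
Ldha, chr7:46845554-46845803, plus strand: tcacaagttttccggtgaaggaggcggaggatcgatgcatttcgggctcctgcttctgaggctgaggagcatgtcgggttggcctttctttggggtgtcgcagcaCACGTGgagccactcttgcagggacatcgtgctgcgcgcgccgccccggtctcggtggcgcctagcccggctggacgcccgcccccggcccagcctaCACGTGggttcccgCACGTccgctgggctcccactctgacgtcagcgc

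The balance of lactate dehydrogenase subunits also differed by class. Ldha made up 37.7% (95% Wilson interval 36.6 to 38.9) and 36.3% of Ldha and Ldhb UMIs in control neuron-rich spots, against 32.7% and 30.7% (29.8 to 31.5) in those of knockouts. In oligodendrocyte-rich spots it was 25.8% and 26.2% against 19.6% and 21.8%. In vessel-rich spots the order turned, with 33.5% and 34.8% in controls and 37.7% and 38.1% in knockouts. In astrocyte-rich spots the libraries interleaved, at 27.3% and 23.7% against 24.8% and 33.2%. The groups were apart in neuron-rich, oligodendrocyte-rich and vessel-rich spots, but not in the same direction. No background over other gene pairs was computed, and over whole sections the groups were apart in 72.5% of single genes. The shares were not taken with equal numbers per region. In that version Ldha was at log2 -0.26 in neuron-rich and -0.07 in vessel-rich spots (adjusted p = 0.258 and 0.81). Ldhb was at log2 0.22 in oligodendrocyte-rich spots (adjusted p = 0.234).

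Ranking every spot of at least 5000 UMIs by a marker share, and summing each decile, gave a finer view of where Hk2 lay, in CPM without TMM factors. By the share of microglia and macrophage markers, Hk2 went from 1.50 CPM in the lowest decile to 2.01 in the highest in control 1 and from 1.40 to 2.58 in control 2. In knockout 1 it went from 1.90 to 9.56 (13 and 31 UMIs) and in knockout 2 from 3.42 to 10.2 (32 and 48 UMIs). In the lowest decile knockout 1 was close to the controls and knockout 2 was above them, and the highest decile held the widest gap between genotypes. Deciles were ranked within each library. Over whole sections these markers summed to 469.6 and 537 CPM in controls against 956 and 941 CPM in knockouts. A decile therefore need not hold like spots in both genotypes. By the share of neuron markers Hk2 ran the other way in every library, from 3.33 to 0.438 and from 3.53 to 1.27 in controls and from 7.02 to 2.35 and from 7.16 to 2.35 in knockouts. By the endothelial share there was no common trend, with 1.18 to 2.31, 1.58 to 3.60, 3.64 to 5.05 and 7.41 to 6.17 in control 1, control 2, knockout 1 and knockout 2. By the astrocyte share Hk2 went up in controls, from 1.06 to 2.27 and from 1.70 to 4.44, and down in knockouts, from 4.87 to 3.33 and from 9.25 to 6.16. These are descriptions of each library, and the deciles share its spots, depth and regions.

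Pfkfb3 was ranked in the same way. By the oligodendrocyte share its level was higher at the upper end in every library, going from 8.56 to 32.1 and from 11.8 to 25.3 CPM in control 1 and control 2 and from 12.4 to 39.0 and from 19.3 to 36.8 CPM in knockout 1 and knockout 2. By the microglia share it went from 18.4 to 22.8 and from 23.4 to 22.6 CPM in controls, and from 28.3 to 33.3 and from 25.7 to 36.1 in knockouts. By the endothelial share it rose in control 1 (12.8 to 22.7) and knockout 1 (16.4 to 38.7) and was flat or lower in control 2 (19.3 to 19.1) and knockout 2 (32.6 to 29.7). Ldha rose along the neuron share in controls, from 305 to 567 and from 274 to 464 CPM, and not in knockouts, where it went from 366 to 382 and from 459.6 to 387. Regions were not balanced in these deciles. The neuron-rich spots above scored highest on the cortex list for 82.2% and 76.0% in controls against 31.3% and 26.1% in knockouts. Control Ldha was higher in cortex-list than in thalamus-list spots, and the part of this in the Ldha deciles was not tested. Hk1 rose along the neuron share in all 4 libraries, by 1.45-fold to 1.89-fold from the lowest to the highest decile. By the microglia share Ldha went from 513 to 333 and from 409 to 316 CPM in controls. In knockouts it went from 314 to 462 and from 381 to 477 CPM.

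**Figure D5:**
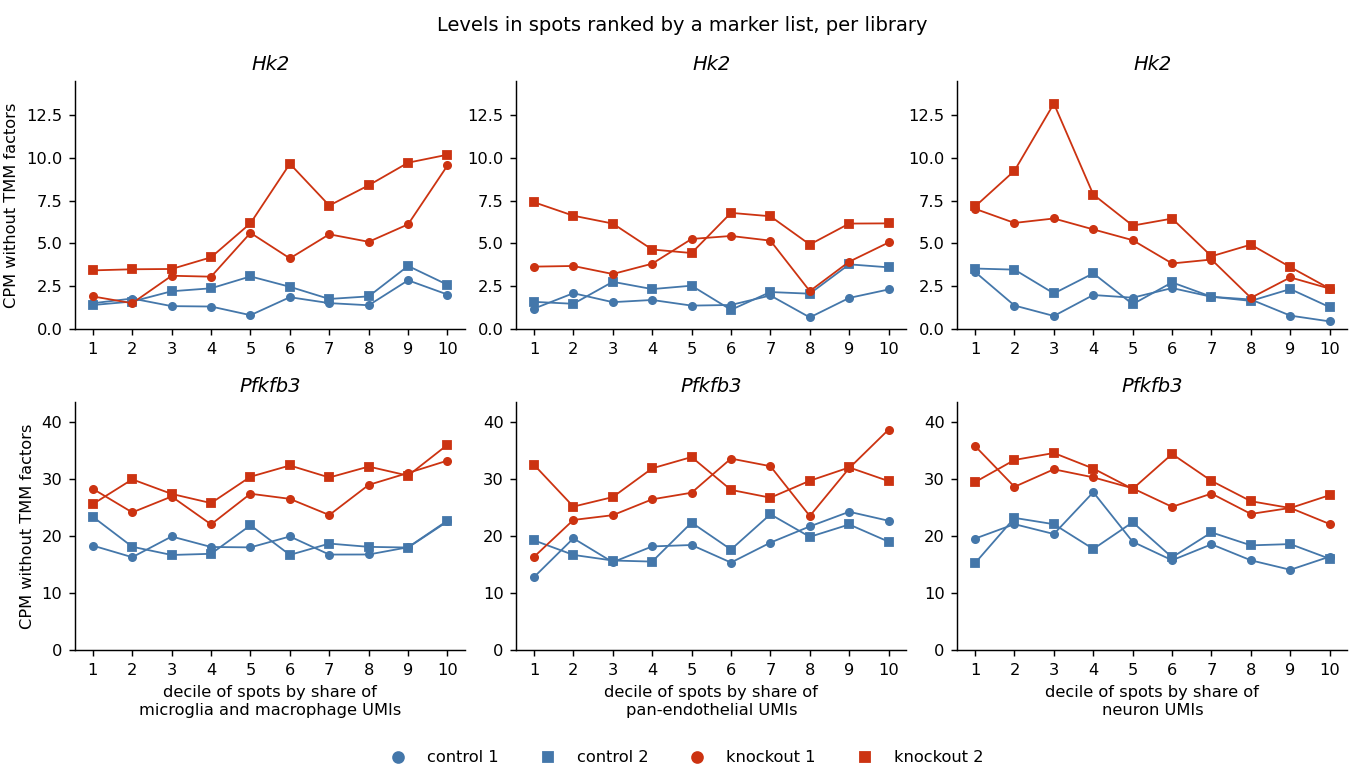
CPM without TMM factors of Hk2 (upper row) and Pfkfb3 (lower row) in deciles of a library's spots ranked by the UMI share of microglia and macrophage, pan-endothelial or neuron marker genes (1 lowest, 10 highest; linear axes from 0), with 1 line per library. In the knockouts Hk2 climbs with the microglia share to 9.56 and 10.2 CPM while the controls end at 2.01 and 2.58, and Hk2 falls with the neuron share in all 4 libraries.

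Other genes of the pathway are given by list. Of 20 further glycolytic enzymes, 17 could be tested over whole sections, 5 rose and 2 fell, with a median log2 change of 0.21. Pgam2, the muscle form of phosphoglycerate mutase, rose 2.44-fold from 9.05 and 7.57 CPM to 18.5 and 21.8 CPM (adjusted p = 0.000381). Pfkp, the platelet-type phosphofructokinase subunit, rose from 196 and 177 to 228 and 241 CPM (log2 0.33, adjusted p = 0.0176). Eno1b rose from 24.2 and 21.6 to 29.2 and 32.4 CPM (log2 0.43, adjusted p = 0.00889), but it is a near copy of Eno1 and reads could be split between them, so its level is uncertain. Bpgm, which makes bisphosphoglycerate, fell from 61.6 and 66.8 to 52.1 and 46.1 CPM (log2 -0.39, adjusted p = 0.0106). Neither Pfkp nor Bpgm was called without knockout 2 (adjusted p = 0.122 and 0.0684).

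Of 7 regulators, 6 could be tested, 1 rose and 1 fell, with a median of 0.08. Hif1a, the oxygen-regulated subunit of hypoxia-inducible factor, was at 74.1 and 76.3 CPM in controls and 85.4 and 87.0 CPM in knockouts (log2 0.20, adjusted p = 0.0482). Tigar, a phosphatase that counters Pfkfb3's product, was at 20.1 and 20.9 against 17.5 and 17.2 CPM (log2 -0.24, adjusted p = 0.0391). Both calls were near the threshold and passed in only 6 and 7 of 20 alternatives. Hif1a was not called without control 1, knockout 1 or knockout 2 (adjusted p = 0.0865, 0.218 and 0.290), and Tigar not without control 2, knockout 1 or knockout 2 (0.0971, 0.150 and 0.200). Ppp1r3c, a glycogen-targeting phosphatase subunit, and Pfkfb2, a relative of Pfkfb3, were at log2 -0.30 and 0.10 and did not pass (adjusted p = 0.114 and 0.372). Ppp1r3c was called lower without control 1 (adjusted p = 0.00260) or knockout 1 (0.0157).

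Of 14 glucose and lactate carriers, 13 could be tested, 4 rose and 4 fell, with a median log2 change of 0.09. Slc2a1, the glucose transporter of the blood-brain barrier and glia, was the most clearly changed, from 114 and 126 CPM to 296 and 279 CPM (log2 1.26, adjusted p = 7.37e-05). Slc16a3, the lactate exporter of glycolytic cells, rose from 3.97 and 2.90 to 7.96 and 7.89 CPM (log2 1.21, adjusted p = 0.00145). Slc16a7, the monocarboxylate carrier of neurons, fell from 20.9 and 20.2 to 14.2 and 13.9 CPM (log2 -0.55, adjusted p = 0.00189). Slc2a13, a carrier of inositol, fell from 66.0 and 68.0 to 53.7 and 52.2 CPM (log2 -0.34, adjusted p = 0.00655), a call lost without knockout 2 (adjusted p = 0.0527).

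At the gate from pyruvate to the mitochondrion, 3 of 13 genes rose and 3 fell, with a median of -0.05. The pyruvate dehydrogenase kinases, which switch that enzyme off, split: Pdk2 rose from 56.0 and 61.8 to 89.3 and 92.0 CPM (log2 0.62, adjusted p = 0.000996) and Pdk1 from 24.3 and 26.7 to 36.1 and 39.5 CPM (log2 0.57, adjusted p = 0.00204), whereas Pdk3 fell from 36.6 and 34.5 to 26.3 and 28.1 CPM (log2 -0.39, adjusted p = 0.00601). Pdp1, the phosphatase that switches it on again, fell from 102 and 107 to 68.2 and 72.6 CPM (log2 -0.57, adjusted p = 0.00112). The shares called in the 4 lists, either way, are to be read against the 38.4% of all genes. The marker sums above move with these lists too, and their part was not tested.

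The same lists were counted within classes. Of the further enzymes, 5 of 15 tested rose in neuron-rich, 2 of 12 in astrocyte-rich, 5 of 12 in oligodendrocyte-rich and 3 of 12 in vessel-rich spots, and 1, 0, 1 and 1 fell. Of the carriers, 3 of 12, 2 of 13, 4 of 12 and 5 of 11 rose in the same order, and 3, 1, 1 and 1 fell. Of the 13 genes at the pyruvate gate, 3, 2, 2 and 3 rose and 2, 1, 3 and 2 fell. Over all genes, 24.8%, 10.6%, 24.8% and 16.2% were called in either direction in neuron-rich, astrocyte-rich, oligodendrocyte-rich and vessel-rich spots. Those called higher were 12.2% in neuron-rich, 11.6% in oligodendrocyte-rich and 8.82% in vessel-rich spots. Regulators had 5 tested genes in each class and 1 call, lower in oligodendrocyte-rich spots.

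Over the 16 sums of class and library, and among 7340 genes of at least 20 CPM in none of the lists, the profiles most like that of Hk2 included those of Zfp36l2 and Slc5a3 (Pearson r of log2(CPM + 1) 0.864 and 0.853). Those most like Ldha were Bcl11a, Khdrbs3 and Itpr1 (0.930, 0.920 and 0.919), and those most like Hk1 were Cyfip2, Herc3 and Madd (0.921, 0.909 and 0.907). The sums of a library share its depth and sections, so these are descriptions of likeness.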

How the data were processed

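The authors deposited raw UMI counts per gene and barcode for 4 Visium libraries. Per the submitters' processing notes they used Space Ranger with mm10, and per the file headers the Cell Ranger 4 matrix format; no other setting was recorded there. Counts were summed over spots of at least 1000 UMIs (whole sections) or 5000 UMIs (classes and regions). They were tested with edgeR 4.0.16 in R 4.3.3 (TMM, filterByExpr, quasi-likelihood, Benjamini-Hochberg, 0.05), with DESeq2 1.42.0 as an alternative. Class against class came from 1 fit of 16 sums with the library as a block and no genotype by class term. Those differences are therefore taken over both genotypes. The interactions came from another fit of these sums with such terms added. In both, marker genes of the classes were left out of counts of calls. Each spot went to that region list, of 6, on which its mean z score was largest. There was no doublet removal, and spot positions were not used here.

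The 10 genes and all lists were chosen with earlier results of these data known. Besides them, the genes named were the up to 4 per list with the smallest p and a mean of at least 5 CPM, and 3 like genes for Hk2, Ldha and Hk1, of which 1 is not reported here. The fit was tested on simulated data: over whole sections it recovered 87.8% of 2-fold changes and 64% of changes of log2 0.585. Within classes it recovered 67% (astrocyte-rich) to 86.9% (neuron-rich) of 2-fold changes. Of changes of log2 0.585 it recovered 23.7% (vessel-rich) to 42.7% (neuron-rich) there. For the vessel-rich against neuron-rich interaction it recovered 51% and 13.5%, so a gene without a call there may still differ. The simulation gave all genes 1 common spread, drew each sum independently and placed changes in genes of any level. The rates are thus averages and need not hold for scarce genes such as Hk2. The replicates differed by far more than sampling noise (chi-square per degree of freedom 51.6 for the controls and 15.7 for the knockouts). Replicate numbers pair no samples in the labels, and same-numbered libraries deviated with r = -0.12 over 17546 genes. Alternatives tried were another normalization and filter, DESeq2, each library left out, other class limits, thinning to 5000 UMIs, the replicate block, and, added after the data were seen, region-balanced classes, single regions and a crossed block.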

Additional observations from a re-analysis of the deposited data

Results flagged for a closer look

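The knockout effect on Ldha differed between astrocyte-rich and neuron-rich spots by 0.71 on the log2 scale. It was log2 -0.43 in neuron-rich and 0.29 in astrocyte-rich spots, and the interaction was tested. With equal spots per region list the difference was 0.42 (adjusted p = 0.0534). The neuron-rich spots came from the cortex list for 82.2% and 76.0% of spots in controls and 31.3% and 26.1% in knockouts, and the part of this in the difference was not tested.

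For Ldha in vessel-rich against neuron-rich spots the difference was 0.56, and 0.18 (adjusted p = 0.602) with equal spots per region list. For Ldhb in oligodendrocyte-rich against neuron-rich spots it was 0.43, and 0.37 (adjusted p = 0.0473) with equal spots per region list.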

How the results depend on the processing

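The rises of Hk2 and Pfkfb3 over whole sections passed in 16 of 20 alternatives each, all but some of the single-region fits. Within regions, the 2 whole-section calls became 1 in the hippocampus list, 1 in the striatum list and 0 in the thalamus, hypothalamus and amygdala, and midbrain and hindbrain lists. Leaving out a library gave 2 to 3 calls. In neuron-rich spots the 2 calls became 1 with DESeq2, with the top 20% and with thinning, and 0 with regions balanced, and ranged from 0 to 5 with a library left out. In astrocyte-rich spots the 0 calls became 1 with one limit for all libraries, and 0 to 1 with a library left out. In oligodendrocyte-rich spots the 3 calls became 1 with DESeq2, the top 20%, mean z scores, thinning or regions balanced and 0 with one limit, and 0 to 3 with a library left out. In vessel-rich spots the 1 call became 2 without a filter or with the top 20% and 0 with DESeq2, one limit or thinning, and 0 to 2 with a library left out. Against neuron-rich spots, the 8 astrocyte-rich calls became 5 with thinning and 4 balanced (5 to 7 with a library left out), the 6 oligodendrocyte-rich calls 2 balanced, and the 8 vessel-rich calls 5 with the top 20%, 3 with thinning and 2 balanced (5 to 7 with a library left out). Of calls on a differing knockout effect, the 1 for astrocyte-rich spots became 2 with the top 20% and 0 balanced, the 1 for oligodendrocyte-rich spots 2 without a filter, with the top 20%, z scores or one limit, and the 1 for vessel-rich spots 0 with one limit or balanced and 0 to 1 with a library left out. The cause was not tested. These counts are to be read against the share of all genes called, which moved too. In neuron-rich, astrocyte-rich, oligodendrocyte-rich and vessel-rich spots it was 24.8%, 10.6%, 24.8% and 16.2%, and 13%, 9.29%, 16% and 12.1% with regions balanced. For the other classes against neuron-rich spots, in this order, balancing took it from 37.0%, 42.2% and 26.6% to 24.6%, 23.6% and 18.6%. For a differing knockout effect it went from 8.0%, 9.16% and 8.39% to 1.23%, 2.17% and 1.1%. The direction reversed for Tigar with thinning (log2 0.018), Slc16a7 in the hypothalamus and amygdala list (0.15), Ldha and Pfkl in oligodendrocyte-rich against neuron-rich spots with regions balanced (0.011 and 0.10), and the Ldhb difference of effects in oligodendrocyte-rich spots with one limit (-0.010). Of 1684 single-gene values, 140 lost a call, 34 gained one and 5 reversed, and 135 changed sign with neither value past the threshold. Hk2 was too low to test in the thinned class fits and in the balanced fits of knockout against control within a class. For knockout against control it had an adjusted p-value in 11 of 13 alternatives in astrocyte-rich and vessel-rich spots. In neuron-rich and oligodendrocyte-rich spots it had one in 10 of 13. With the replicate block, the calls were 2 over whole sections and 3, 0, 3 and 1 in neuron-rich, astrocyte-rich, oligodendrocyte-rich and vessel-rich spots, and the crossed block gave 2 over whole sections. Low counts limit Hk2 in the classes.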
